A study of Mus musculus with 10 samples.

Results

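Glycolysis and hypoxia response genes were followed across mouse pericytes and the oligodendrocyte progenitor cells (OPC) induced from them, using 38 genes listed by symbol. Of these, 33 had at least 1 probe under their symbol, with 54 probes among 25697 on the array, and 28 had a probe above background, with a detection p-value below 0.01 on no fewer than 2 of the 10 arrays. These 28 were tested among 9778 genes. The arrays were Illumina bead arrays of C57BL/6 cells, with 2 arrays each of 5 groups: induced OPC (iOPC) made from pericytes after 5, 15 and 25 passages, cells titled OPC, and pericytes (PC), the mural cells of small vessels. The design text describes the OPC as primary oligodendrocyte cells, and the cell type label reads oligodendrocyte. The labels give no age or sex of animals, do not name the factors that induced the iOPC, and do not say whether an iOPC line was 1 clone or whether the 2 arrays of a group came from separate cultures, so every p-value measures only the spread between these arrays.

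Glycolysis turns glucose into pyruvate, and lactate dehydrogenase turns pyruvate into lactate. When oxygen is low, the hypoxia-inducible factors, built from HIF1A or EPAS1, escape hydroxylation by the EGLN enzymes and switch on genes of glucose uptake, glycolysis, vessel growth and collagen processing. In mice, active hypoxia-inducible factor is known to hold back the maturation of OPC, and pericytes are known as a source of vessel signals and matrix.

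Each sample had columns in 2 tables, and whether its columns in both came from the same array was not tested. The signal table held raw bead signals with detection p-values, and the signals were background-corrected and quantile-normalized here. The value table held the authors' deposited log2 values. Both were fitted alike with limma, with Benjamini-Hochberg adjustment over all 9778 genes, and a call means an adjusted p below 0.05. Mean raw signal was 268 to 388 per array, and 23 to 27 of the 28 members were detected on each. Replicate arrays correlated at 0.996 to 0.997 over all genes in the signal table and at 0.962 to 0.994 in the value table, where the lowest was iOPC passage 5. In bulk RNA, fewer cells of a type and less RNA per cell cannot be told apart.

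The 2 tables did not hold the same profile under the same heading. Over the 28 members, the group means of the arrays headed PC differed by a median of 0.253 log2 units between the tables. Arrays headed iOPC passage 15 in the signal table lay closest to those headed OPC in the value table, with a median difference of 0.288, against 0.904 to the like-named columns. For the other like-named headings the median difference was 0.669 at passage 5, 1.06 at passage 25 and 1.12 for OPC. No column was renamed here, and which table carries the right headings was not tested. Over all genes, the group means of the 2 closest pairs, PC with PC and signal-table passage 15 with value-table OPC, each correlated at 0.979, while the signal-table columns headed passage 5, passage 25 and OPC correlated with no value-table group above 0.898. The tables thus differed by more than the order of their headings. The mean of the 4 other groups against PC leads the results because PC matched between the tables, and every comparison is given from both tables side by side.

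**Figure D1:**
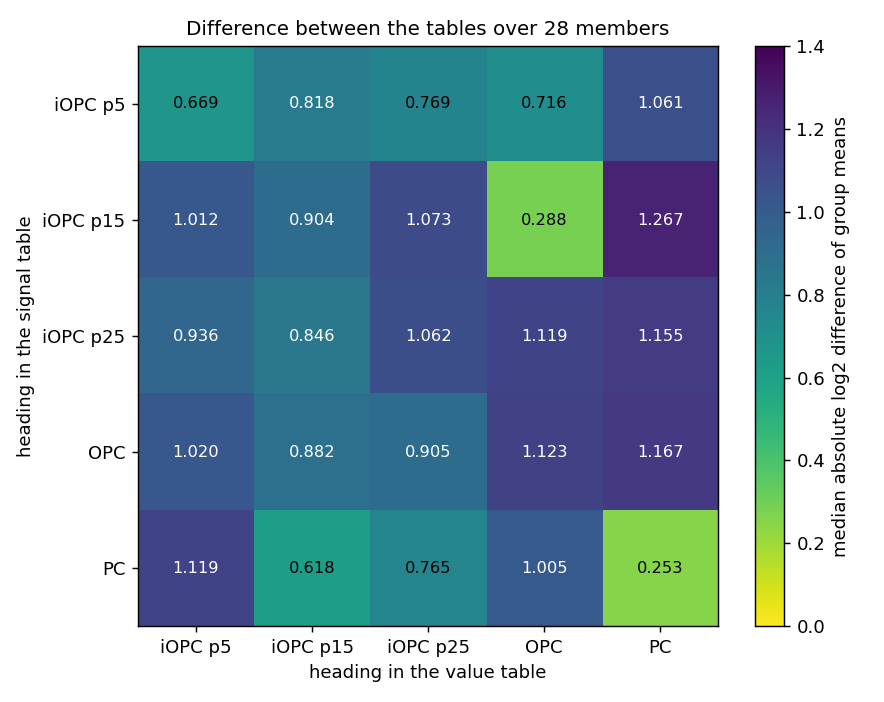
Median absolute log2 difference between the group means of the 28 tested members in the signal table (rows) and in the value table (columns), for every pair of headings. The pairs PC with PC (0.253) and signal-table iOPC passage 15 with value-table OPC (0.288) stand apart from all others, the next lowest being 0.618.

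Tested pericyte and OPC markers followed the PC heading in both tables. Of 10 listed pericyte markers, all with a probe, 6 passed the detection filter, and Des, Rgs5, Kcnj8 and Abcc9 did not. The 6 were detected on the PC arrays, where their summed signal was 3385 to 3512, against 195 to 702 on the other arrays. Anpep was detected on no array outside PC, and Pdgfrb on no iOPC array and not on both OPC arrays. Both thus passed the filter only through PC, and their detection there was fixed by it. By value, the mean over the 6 was 7.49 to 7.68 in PC and 3.73 to 4.30 on the other arrays. Acta2, Foxc2 and Tbx18 were also detected on both arrays of passage 5 and of OPC. Summed OPC markers ran from 4584 to 29577 on the iOPC and OPC arrays in the signal table, highest at passage 15, against 609 to 645 on PC arrays. Nkx2-2, a defining OPC marker, was not detected on the signal-table arrays headed OPC or iOPC passage 5. Olig2, another, was not detected on those headed iOPC passage 5 or passage 25, and only passage 15 had it on both arrays. By value, the mean over the OPC markers was highest in OPC, at 11.7, against 3.06 to 3.16 in PC. Astrocyte markers summed to 1174 to 1191 at passage 5, 6786 to 7022 at passage 15, 313 to 316 at passage 25 and 1639 to 1667 in OPC of the signal table, against 3665 to 3875 in PC. On PC arrays Gja1 and Slc1a3 were detected on both, and Gfap, Aqp4 and Slc1a2 on neither. By value, the order of OPC and PC was the reverse. The mean over the astrocyte markers was 7.75 to 7.86 in OPC, 4.66 to 4.67 in PC and 4.16 to 4.51 on the iOPC arrays. The 5 tested markers of myelinating oligodendrocytes summed to 1083 to 17800 on the iOPC and OPC arrays, highest at passage 25 where all 5 were detected, against 91.1 to 115 on PC arrays. By value, the mean over these 5 was 7.90 to 9.60 on the iOPC arrays, 4.66 to 4.74 in OPC and 3.12 to 3.21 in PC. No endothelial or microglial marker passed the detection filter. The part of these markers in the results below was not tested.

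Against PC, the mean of the 4 other groups was called lower in both tables for 9 of the 12 tested glycolytic enzymes. So it was for Adm, P4ha2 and Vegfa among the 7 other hypoxia response genes, although the fall of Vegfa by signal rested on passage 15. Of the 28 members, 14 were called lower and 2 higher in both tables, with a background over all genes of 22.3% called lower and 27.4% called higher in both. The lower genes were Adm, P4ha2, Eno2, Pfkp, Slc2a3, Pfkfb4, Hk2, Tpi1, Hk1, Ldha, Vegfa, Aldoa, Gapdh and Pgam1, and the higher ones were Pfkm and Bnip3l. Ndrg1 and Ddit4 were called in opposite directions in the 2 tables, against a background of 2.97%.

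The signal table gave 12 members called higher and 15 called lower, where 76.1% of all genes were called (41.8% higher and 34.3% lower). The median log2 change of the members was -0.30, beside 0.08 over all genes. The value table gave 2 called higher and 17 called lower, where 60.9% of all genes were called (33.8% higher and 27% lower), and the median was -0.69 beside 0.11. Without either PC array 1 was called higher by value. With both iOPC passage 15 arrays left out, the counts were 12 higher and 13 lower by signal, and 3 higher and 17 lower by value. Without both OPC arrays they were 11 and 15 by signal, and 1 and 18 by value.

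**Figure D2:**
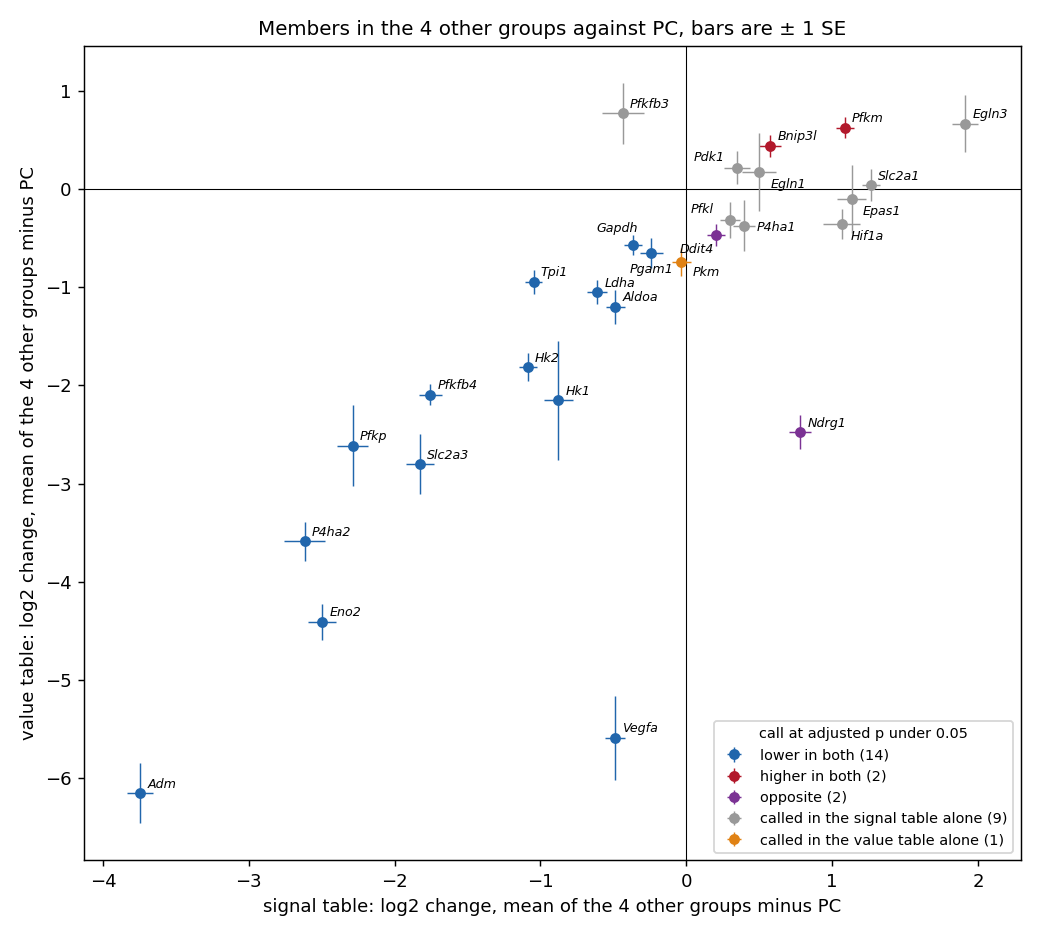
Log2 change of each of the 28 members, mean of iOPC passages 5, 15, 25 and OPC minus PC, in the signal table (x axis) and the value table (y axis), with bars of 1 SE. The 14 members called lower in both tables fill the lower left, and Vegfa and Ndrg1 lie far below the rest of their signal-table neighbours.

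Adm carried the largest fall of any member in both tables. It encodes adrenomedullin, a secreted peptide that widens vessels. Its log2 signals were 4.23 and 4.32 at passage 5, 4.60 and 4.68 at passage 15, 5.16 and 4.87 at passage 25, 4.37 and 4.32 in OPC, and 8.18 and 8.45 in PC. Its log2 values, from the value table, were 2.03 and 2.37 at passage 5, 1.98 and 3.05 at passage 15, 2.43 and 1.66 at passage 25, 2.65 and 3.01 in OPC, and 8.43 and 8.68 in PC. The PC arrays stood above all others, and outside PC only 1 passage 25 array detected Adm. The gene thus passed the detection filter only through PC, and its detection there was a condition of testing. The log2 change was -3.75 (SE 0.0915, adjusted p = 9.57e-11) in the signal table and -6.16 (SE 0.309, adjusted p = 1.68e-06) in the value table. Measured against the detection limit, Adm was at least 11.2-fold lower at passage 5, at least 11.5-fold lower at passage 15 and at least 11.4-fold lower in OPC than in PC.

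P4ha2, a subunit of the enzyme that hydroxylates collagen prolines, had the next largest fall by signal. The log2 signals of P4ha2 were 5.18 and 5.47 at passage 5, 4.37 and 4.28 at passage 15, 4.95 and 5.56 at passage 25, 5.68 and 5.91 in OPC, and 7.80 and 7.78 in PC, and its log2 values were 4.40 and 3.97 at passage 5, 4.63 and 4.57 at passage 15, 4.93 and 4.65 at passage 25, 3.37 and 2.85 in OPC, and 7.56 and 7.96 in PC. All PC arrays lay above all others in both tables. The change was -2.62 (SE 0.14, adjusted p = 4.44e-08) in the signal table and -3.59 (SE 0.198, adjusted p = 2.73e-06) in the value table. At passage 15 of the signal table P4ha2 was not above background, at least 8.02-fold lower than in PC. Its relative P4ha1 did not share this pattern. The signals of P4ha1 were 7.66 and 7.58 at passage 5, 5.82 and 5.60 at passage 15, 8.32 and 8.39 at passage 25, 7.70 and 7.60 in OPC, and 6.98 and 6.90 in PC, above PC everywhere but at passage 15. Its change was 0.39 (SE 0.0738, adjusted p = 0.000671) in the signal table and -0.37 (SE 0.263, adjusted p = 0.257) in the value table, where it was called lower without passage 15 replicate 2 (-0.50, adjusted p = 0.0480) and without both passage 5 arrays (-0.85, adjusted p = 0.0208).

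Vegfa, the vessel growth factor, was lower than PC in both tables but to very different degrees. Its log2 signals were 8.72 and 8.495 at passage 5, 6.98 and 6.95 at passage 15, 9.53 and 9.54 at passage 25, 9.11 and 9.04 in OPC, and 9.002 and 9.07 in PC. By value they were 3.94 and 3.11 at passage 5, 2.47 and 1.70 at passage 15, 2.94 and 1.24 at passage 25, 6.79 and 6.68 in OPC, and 9.16 and 9.24 in PC. By signal, passage 25 stood above PC, OPC overlapped it and passage 15 lay far below, while every value-table array outside PC lay below both PC arrays. The change was -0.49 (SE 0.0699, adjusted p = 0.000101) in the signal table and -5.59 (SE 0.428, adjusted p = 1.61e-05) in the value table. Without the passage 15 arrays the signal-table change was 0.04 (adjusted p = 0.666), so that call rested on them. A second probe of Vegfa gave -0.59 in the signal table and -4.23 in the value table.

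The windows before the starts of these genes were searched for the core letters bound by hypoxia-inducible factors, ACGTG or GCGTG on either strand, where CACGTG holds ACGTG on both strands. The sequences below are the 250 bases upstream of the RefSeq start (build GRCm38.p6), with matches in capitals, and are shown for Adm, Pfkfb4 and P4ha2, called lower in both tables, and for Slc2a1 and Pfkm, called higher in the signal table.
Adm: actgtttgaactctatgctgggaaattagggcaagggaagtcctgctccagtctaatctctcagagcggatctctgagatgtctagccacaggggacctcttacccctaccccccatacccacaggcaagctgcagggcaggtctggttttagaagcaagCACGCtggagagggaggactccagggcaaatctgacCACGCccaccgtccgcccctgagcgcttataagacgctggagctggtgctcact
Pfkfb4: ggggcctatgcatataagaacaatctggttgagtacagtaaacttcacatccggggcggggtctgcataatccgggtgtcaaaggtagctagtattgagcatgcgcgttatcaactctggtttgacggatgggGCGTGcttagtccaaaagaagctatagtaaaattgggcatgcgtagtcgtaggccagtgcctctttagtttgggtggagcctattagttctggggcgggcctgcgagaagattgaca
P4ha2: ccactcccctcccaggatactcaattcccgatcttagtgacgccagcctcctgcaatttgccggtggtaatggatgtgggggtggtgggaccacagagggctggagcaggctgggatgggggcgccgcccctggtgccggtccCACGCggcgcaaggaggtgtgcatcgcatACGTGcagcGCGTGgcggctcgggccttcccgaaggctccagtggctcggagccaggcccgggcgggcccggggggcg
Slc2a1: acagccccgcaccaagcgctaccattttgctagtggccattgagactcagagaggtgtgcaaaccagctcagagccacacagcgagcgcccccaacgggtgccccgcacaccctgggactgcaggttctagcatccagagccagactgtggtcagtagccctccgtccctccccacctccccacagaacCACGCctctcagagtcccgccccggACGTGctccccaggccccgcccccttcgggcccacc
Pfkm: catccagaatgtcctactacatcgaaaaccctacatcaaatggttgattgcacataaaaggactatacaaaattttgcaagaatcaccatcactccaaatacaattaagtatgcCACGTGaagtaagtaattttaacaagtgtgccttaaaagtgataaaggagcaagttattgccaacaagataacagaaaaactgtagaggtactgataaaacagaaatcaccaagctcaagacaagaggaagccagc
The window of Adm (chr7:110627407-110627656, plus strand) held 2 matches, that of Pfkfb4 (chr9:108991652-108991901, plus strand) 1, and that of P4ha2 (chr11:54100674-54100923, plus strand) 3. Slc2a1 (chr4:119108495-119108744, plus strand) held 2. The Pfkm window shown (chr15:98092339-98092588, plus strand), 1 of 4 for that gene, held 2 in a single CACGTG. Of all 32851 RefSeq windows, 38.6% held either set of letters, and 6.02% held CACGTG. Among windows of tested members 27 of 35 (77.1%) held either, and among those of the 14 genes that were lower in both, 13 of 18 (72.2%) did. A match describes the letters only. Slc2a3, Bnip3l, Ndrg1 and Epas1 had no entry.

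At the entry of glucose, the 2 transporters differed. Slc2a3 (GLUT3, a high-affinity glucose carrier) had log2 signals of 4.85 and 5.15 at passage 5, 7.54 and 7.48 at passage 15, 4.96 and 5.05 at passage 25, 6.12 and 5.80 in OPC, and 7.73 and 7.66 in PC. By value, it had 5.12 and 4.22 at passage 5, 4.35 and 3.67 at passage 15, 4.23 and 3.36 at passage 25, 7.86 and 7.71 in OPC, and 7.94 and 7.80 in PC. Passage 15 in the signal table, and OPC in the value table, were near PC, and the other arrays were lower. The change was -1.83 (SE 0.0976, adjusted p = 4.31e-08) and, in the value table, -2.80 (SE 0.307, adjusted p = 0.000124). Slc2a1 (GLUT1, the basal carrier) had log2 signals of 10.04 and 10.04 at passage 5, 8.05 and 8.15 at passage 15, 10.91 and 10.92 at passage 25, 10.34 and 10.38 in OPC, and 8.63 and 8.55 in PC. All groups but passage 15 stood above PC, and the signal-table change was 1.27 (SE 0.0588, adjusted p = 1.39e-08). By value, all 10 arrays lay between 8.26 and 9.23, with PC at 8.76 and 8.83, and the change was 0.04 (SE 0.161, adjusted p = 0.841). The lactate carriers Slc16a1 and Slc16a3 had probes that were not detected on any array.

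Among the 12 tested enzymes of glycolysis, 9 were called lower in both tables and 1, Pfkm, higher, for the mean of the 4 groups, beside 22.3% and 27.4% of all genes. Not every group shared all 9. With each group alone against PC, those lower in both tables numbered 7 at passage 5 (18.1% of all genes) and 6 at passage 15 (17.9%). There were 9 at passage 25 (18%) and 6 in OPC (17.3%). Hexokinase phosphorylates glucose and traps it in the cell. Hk2, the inducible form, had log2 signals of 7.499 and 7.57 at passage 5, 7.16 and 7.25 at passage 15, 8.82 and 8.83 at passage 25, 8.91 and 8.91 in OPC, and 9.17 and 9.25 in PC, and log2 values of 7.86 and 7.38 at passage 5, 8.01 and 8.14 at passage 15, 7.76 and 7.70 at passage 25, 7.49 and 7.36 in OPC, and 9.56 and 9.49 in PC. Every PC array was higher than every other array in both tables, and passage 25 and OPC of the signal table were closest to PC. The change was -1.09 (SE 0.0602, adjusted p = 5.69e-08) in the signal table and -1.81 (SE 0.145, adjusted p = 2.01e-05) in the value table. Hk1, the constitutive form, had log2 signals of 6.56 and 6.75 at passage 5, 7.43 and 7.57 at passage 15, 6.26 and 6.13 at passage 25, 6.75 and 6.59 in OPC, and 7.80 and 7.47 in PC. By value, its arrays read 3.29 and 6.17 at passage 5, 5.98 and 5.54 at passage 15, 4.99 and 5.22 at passage 25, 7.26 and 7.42 in OPC, and 8.12 and 7.65 in PC. It fell in both tables, with -0.88 (SE 0.0972, adjusted p = 1.44e-05) in the signal table, where passage 15 overlapped PC. Its value-table change was -2.15 (SE 0.611, adjusted p = 0.0166), and its 2 passage 5 arrays read 3.29 and 6.17, the widest gap between replicates of any member. That call was lost without PC replicate 1 (adjusted p = 0.117) or PC replicate 2 (adjusted p = 0.0634).

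Phosphofructokinase, the committed step, is built from 3 kinds of subunit that moved apart. Pfkp, the platelet form, had log2 signals of 4.34 and 4.34 at passage 5, 6.39 and 6.35 at passage 15, 4.93 and 4.47 at passage 25, 5.04 and 5.05 in OPC, and 7.504 and 7.30 in PC. Its log2 values were 3.57 and 5.47 at passage 5, 5.45 and 5.13 at passage 15, 4.37 and 4.69 at passage 25, 6.29 and 6.28 in OPC, and 7.96 and 7.58 in PC. PC was highest in both tables, and Pfkp was at least 5.97-fold lower at passage 5 and at least 5.54-fold lower at passage 25 of the signal table, where it was not above background. Over the 4 groups the change was -2.29 (SE 0.106, adjusted p = 1.33e-08) in the signal table and -2.61 (SE 0.416, adjusted p = 0.000969) in the value table.

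Pfkm, the muscle form, went the other way. Log2 signals were 10.03 and 9.96 at passage 5, 10.66 and 10.54 at passage 15, 10.68 and 10.68 at passage 25, 9.59 and 9.62 in OPC, and 9.15 and 9.12 in PC, and its log2 values were 9.96 and 9.92 at passage 5, 9.64 and 9.70 at passage 15, 9.68 and 9.54 at passage 25, 10.85 and 10.85 in OPC, and 9.41 and 9.37 in PC. All iOPC and OPC arrays lay above all PC arrays in both tables. The change was 1.09 (SE 0.0599, adjusted p = 5.45e-08) in the signal table and 0.63 (SE 0.105, adjusted p = 0.00123) in the value table, where it was 0.35 (adjusted p = 0.0508) without both OPC arrays. Its 3 passing probes ran from 0.40 to 1.09 in the signal table, all called higher, and from 0.34 to 0.63 in the value table, with 2 of 3 called higher. Pfkl, the liver form, had a signal-table change of 0.30 (SE 0.0683, adjusted p = 0.00245) and a value-table change of -0.31 (SE 0.181, adjusted p = 0.171). A second Pfkl probe gave -0.20 in the signal table and 0.66 in the value table, neither called, so no direction is given for it. Without passage 5 replicate 2 the value-table change was -0.39 (adjusted p = 0.0370).

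Aldoa, the aldolase that splits the 6-carbon sugar, and Tpi1, which interconverts the products, fell in both tables. Tpi1 had log2 signals of 11.20 and 11.14 at passage 5, 10.28 and 10.29 at passage 15, 11.06 and 11.04 at passage 25, 11.01 and 10.95 in OPC, and 11.93 and 11.90 in PC, and log2 values of 11.33 and 11.61 at passage 5, 11.56 and 11.59 at passage 15, 11.60 and 11.75 at passage 25, 10.58 and 10.67 in OPC, and 12.33 and 12.22 in PC. The PC arrays were above all others in both tables. The change was -1.05 (SE 0.0566, adjusted p = 4.71e-08) in the signal table and -0.94 (SE 0.122, adjusted p = 0.000316) in the value table. The log2 signals of Aldoa were 10.68 and 10.77 at passage 5, 10.41 and 10.42 at passage 15, 11.01 and 10.95 at passage 25, 10.57 and 10.42 in OPC, and 11.11 and 11.17 in PC, and its log2 values were 10.44 and 9.94 at passage 5, 10.71 and 10.27 at passage 15, 9.93 and 9.99 at passage 25, 10.98 and 11.02 in OPC, and 11.67 and 11.54 in PC. Its change was -0.49 (SE 0.0641, adjusted p = 5.35e-05) in the signal table and -1.20 (SE 0.17, adjusted p = 0.000528) in the value table, and here too no PC array overlapped the others.

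Gapdh makes the NADH of the path. It had log2 signals of 13.20 and 13.12 at passage 5, 12.97 and 13.03 at passage 15, 12.45 and 12.37 at passage 25, 12.71 and 12.73 in OPC, and 13.25 and 13.13 in PC, and log2 values of 12.49 and 12.56 at passage 5, 12.69 and 12.71 at passage 15, 12.68 and 12.72 at passage 25, 13.16 and 13.17 in OPC, and 13.35 and 13.33 in PC. The PC arrays were highest by value, and passage 5 overlapped PC by signal. Gapdh changed by -0.37 (SE 0.0633, adjusted p = 0.00039) in the signal table and -0.56 (SE 0.101, adjusted p = 0.00182) in the value table.

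Pgam1, which moves the phosphate of 3-phosphoglycerate, had log2 signals of 8.59 and 8.71 at passage 5, 8.67 and 8.57 at passage 15, 8.21 and 8.40 at passage 25, 8.54 and 8.36 in OPC, and 8.69 and 8.80 in PC, and log2 values of 7.79 and 8.10 at passage 5, 8.92 and 8.55 at passage 15, 8.23 and 8.48 at passage 25, 8.69 and 8.86 in OPC, and 9.18 and 9.02 in PC. PC overlapped passage 5 by signal and none of the other groups by value. Pgam1 changed by -0.24 (SE 0.0791, adjusted p = 0.0185) and, in the value table, -0.65 (SE 0.156, adjusted p = 0.00791). The signal-table call of Pgam1 was lost without PC replicate 2 (adjusted p = 0.148), and the value-table call without PC replicate 1 (adjusted p = 0.0814).

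Eno2, the gamma enolase best known from neurons, had log2 signals of 4.33 and 4.22 at passage 5, 5.33 and 4.95 at passage 15, 4.29 and 4.45 at passage 25, 5.72 and 5.79 in OPC, and 7.35 and 7.42 in PC. By value, the arrays read 3.69 and 3.21 at passage 5, 2.31 and 2.05 at passage 15, 2.71 and 2.31 at passage 25, 4.77 and 4.73 in OPC, and 7.78 and 7.48 in PC. PC stood above every other array in both tables. Over the 4 groups the change was -2.496 (SE 0.0958, adjusted p = 3.05e-09) in the signal table and -4.41 (SE 0.18, adjusted p = 5.5e-07) in the value table. The gene was below background at passages 5 and 25 of the signal table, at least 5.89-fold and at least 5.46-fold lower than PC. Of 5 listed neuron markers, all with a probe, 2 passed the detection filter, Map2 and Syp, and Tubb3, Snap25 and Rbfox3 did not. Map2 and Syp summed to 349 to 4264 on the iOPC and OPC arrays, against 37.3 to 44.7 on PC arrays. By value, their mean was 8.17 to 8.50 on the iOPC arrays, 10.3 to 10.5 in OPC and 3.64 to 4.07 in PC. The part of these markers in Eno2 was not tested.

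Pkm, which makes pyruvate, was called in the value table alone, with -0.74 (SE 0.145, adjusted p = 0.00287), against -0.03 (SE 0.0629, adjusted p = 0.639) in the signal table. Ldha, the subunit of lactate dehydrogenase that favours lactate, fell in both. Log2 signals of Ldha were 12.002 and 11.91 at passage 5, 11.49 and 11.498 at passage 15, 11.75 and 11.72 at passage 25, 12.15 and 12.32 in OPC, and 12.52 and 12.41 in PC, and its log2 values were 11.67 and 11.42 at passage 5, 11.95 and 11.75 at passage 15, 11.81 and 11.67 at passage 25, 11.87 and 12.02 in OPC, and 12.79 and 12.85 in PC. PC was above all other arrays, with changes of -0.61 (SE 0.0672, adjusted p = 1.33e-05) in the signal table and -1.05 (SE 0.126, adjusted p = 0.000211) in the value table. Pgk1, which makes ATP from bisphosphoglycerate, had a probe detected on 1 array and was not tested, and Gpi1, Eno1 and Ldhb were not analysed here.

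**Figure D3:**
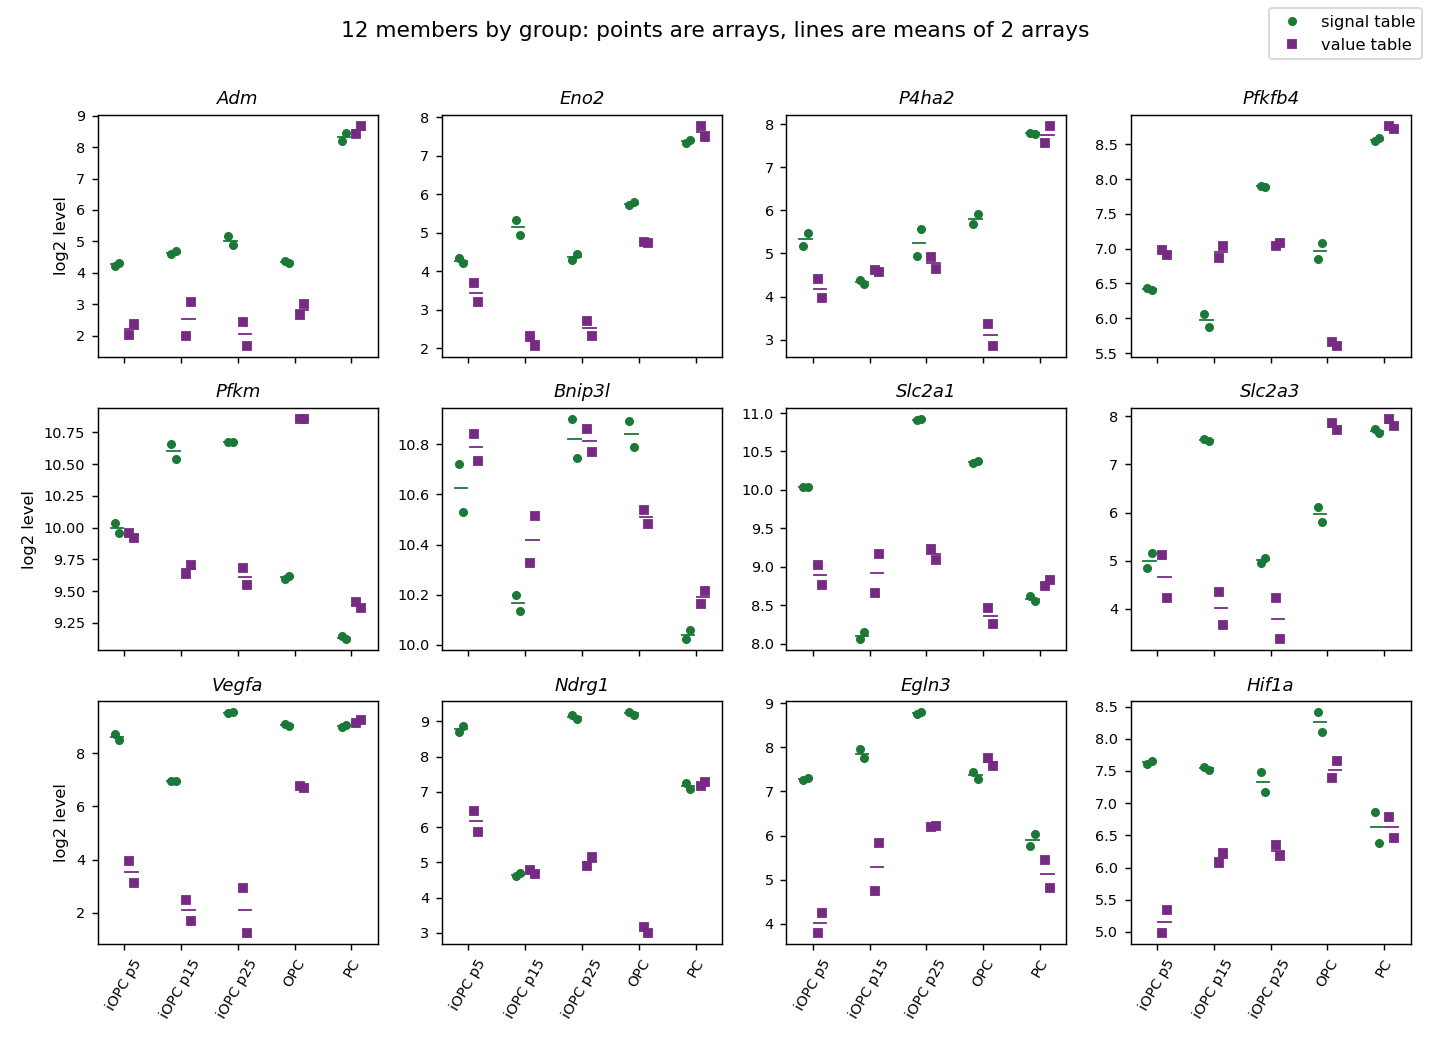
Log2 signal (signal table) and log2 value (value table) of 12 members by group, with each point an array and each line the mean of 2 arrays. Adm, Eno2, P4ha2 and Pfkfb4 were highest in PC on every array of both tables, while Ndrg1 and Vegfa differ between the tables.

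Of the 3 regulators of glycolytic flux, Pfkfb4 was called lower in both tables. It makes and removes fructose 2,6-bisphosphate, the activator of phosphofructokinase. Signals of Pfkfb4 were, on the log2 scale, 6.43 and 6.40 at passage 5, 6.07 and 5.87 at passage 15, 7.91 and 7.89 at passage 25, 6.85 and 7.09 in OPC, and 8.54 and 8.59 in PC, and its log2 values were 6.98 and 6.91 at passage 5, 6.86 and 7.04 at passage 15, 7.05 and 7.09 at passage 25, 5.65 and 5.60 in OPC, and 8.77 and 8.72 in PC. PC arrays stood above all others, with passage 25 of the signal table closest to them. The change was -1.76 (SE 0.0776, adjusted p = 9.27e-09) in the signal table and -2.09 (SE 0.108, adjusted p = 1.9e-06) in the value table. Pfkfb3, its relative with the stronger kinase, was detected on 1 passage 25 array and 1 PC array. Its signal-table change of -0.43 (SE 0.142, adjusted p = 0.0177) was lost without PC replicate 2 (adjusted p = 0.215), and its value-table change was 0.78 (SE 0.31, adjusted p = 0.0612). By value it was called higher without passage 5 replicate 2 (adjusted p = 0.0394), passage 25 replicate 1 (adjusted p = 0.0339) or passage 25 replicate 2 (adjusted p = 0.00687). Pdk1, a kinase that inhibits pyruvate dehydrogenase, changed by 0.35 (SE 0.0881, adjusted p = 0.00449) in the signal table and 0.22 (SE 0.17, adjusted p = 0.296) in the value table.

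The HIF subunits and their hydroxylases were called higher than PC in the signal table, 4 of 4, beside 41.8% of all genes, and 0 of 4 were called by value, beside 33.8% of all genes called higher and 27% lower. By value, Egln3 was called higher without passage 15 replicate 1 (0.81, adjusted p = 0.0161), without both passage 15 arrays (0.84, adjusted p = 0.0140), without both passage 5 arrays (1.26, adjusted p = 0.00785) and with the mean of its probes (0.56, adjusted p = 0.0142). Hif1a was called lower by value without passage 5 replicate 2 (-0.40, adjusted p = 0.0377) and without both OPC arrays (-0.77, adjusted p = 0.00769). Hif1a had log2 signals of 7.61 and 7.66 at passage 5, 7.57 and 7.52 at passage 15, 7.48 and 7.17 at passage 25, 8.41 and 8.11 in OPC, and 6.86 and 6.39 in PC. Value-table readings were 4.99 and 5.33 at passage 5, 6.07 and 6.22 at passage 15, 6.34 and 6.18 at passage 25, 7.39 and 7.65 in OPC, and 6.79 and 6.46 in PC. Every iOPC and OPC array exceeded PC by signal, while by value every iOPC array lay below both PC arrays and OPC lay above. The changes were 1.07 (SE 0.128, adjusted p = 2.58e-05) and, in the value table, -0.35 (SE 0.155, adjusted p = 0.0835). Epas1, the endothelial relative of Hif1a, was not above background on PC arrays of the signal table, nor on those of passage 15, and was at least 1.45-fold higher over the 4 groups. At passage 25 it was at least 3.57-fold higher, and in the value table the 4-group change was -0.10 (SE 0.346, adjusted p = 0.825). Egln3, an oxygen sensor that hydroxylates HIF and is itself a HIF target, had log2 signals of 7.25 and 7.31 at passage 5, 7.95 and 7.75 at passage 15, 8.74 and 8.79 at passage 25, 7.44 and 7.29 in OPC, and 5.76 and 6.04 in PC, with every array above PC. Its change was 1.91 (SE 0.0876, adjusted p = 1.24e-08) in the signal table and 0.67 (SE 0.29, adjusted p = 0.079) in the value table. Egln1, the main oxygen sensor, changed by 0.502 (SE 0.116, adjusted p = 0.00267) and, in the value table, 0.18 (SE 0.396, adjusted p = 0.717), and the first call was lost without PC replicate 2 (adjusted p = 0.0619).

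Bnip3l, a mitophagy receptor, rose in both tables. Its log2 signals were 10.72 and 10.53 at passage 5, 10.20 and 10.14 at passage 15, 10.90 and 10.74 at passage 25, 10.90 and 10.79 in OPC, and 10.02 and 10.06 in PC, and its log2 values were 10.84 and 10.73 at passage 5, 10.32 and 10.52 at passage 15, 10.86 and 10.77 at passage 25, 10.54 and 10.48 in OPC, and 10.16 and 10.21 in PC. No iOPC or OPC array fell below a PC array. The change was 0.57 (SE 0.0734, adjusted p = 4.2e-05) in the signal table and 0.44 (SE 0.111, adjusted p = 0.00957) in the value table, where leaving out PC replicate 1 (adjusted p = 0.0813) or PC replicate 2 (adjusted p = 0.0577) ended the call. Together with Pfkm it was 1 of 2 members whose arrays were apart and higher in both tables, against 14.8% of all genes. The arrays of 9 members were apart and lower in both, Hk2, Pfkp, Aldoa, Tpi1, Eno2, Ldha, Pfkfb4, Adm and P4ha2, against 14.6% of all genes.

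Ndrg1 and Ddit4 disagreed between tables. Ndrg1, a stress and differentiation gene known from myelinating glia, had log2 signals of 8.70 and 8.87 at passage 5, 4.60 and 4.70 at passage 15, 9.19 and 9.07 at passage 25, 9.26 and 9.20 in OPC, and 7.26 and 7.08 in PC. Its log2 values were 6.47 and 5.87 at passage 5, 4.78 and 4.68 at passage 15, 4.89 and 5.15 at passage 25, 3.15 and 3.001 in OPC, and 7.16 and 7.29 in PC. By signal, all groups but passage 15 exceeded PC, and passage 15 was below background and at least 5.20-fold lower. By value, every array outside PC was lower. The changes were 0.78 (SE 0.0764, adjusted p = 5.38e-06) and, in the value table, -2.47 (SE 0.17, adjusted p = 8.74e-06), and a second probe gave 0.67 and -2.36. Ddit4, an inhibitor of the growth kinase mTOR, had log2 signals of 9.32 and 9.39 at passage 5, 9.45 and 9.502 at passage 15, 9.61 and 9.69 at passage 25, 9.68 and 9.74 in OPC, and 9.33 and 9.36 in PC, and log2 values of 9.25 and 9.38 at passage 5, 8.91 and 8.74 at passage 15, 8.54 and 8.64 at passage 25, 9.86 and 9.92 in OPC, and 9.62 and 9.62 in PC. Passage 5 overlapped PC by signal, and by value OPC lay above PC and the passages below. Ddit4 changed by 0.20 (SE 0.0591, adjusted p = 0.00978) in the signal table and -0.47 (SE 0.11, adjusted p = 0.00722) in the value table. Its signal-table call was lost under median scaling (0.05, adjusted p = 0.608) and without PC replicate 1 (adjusted p = 0.0640), and its value-table call without either PC replicate (adjusted p = 0.0565 and 0.0585). Bnip3 and Car9, both classical hypoxia markers, were not detected on any array, and Ero1l and Ankrd37 were not analysed here.

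**Figure D4:**
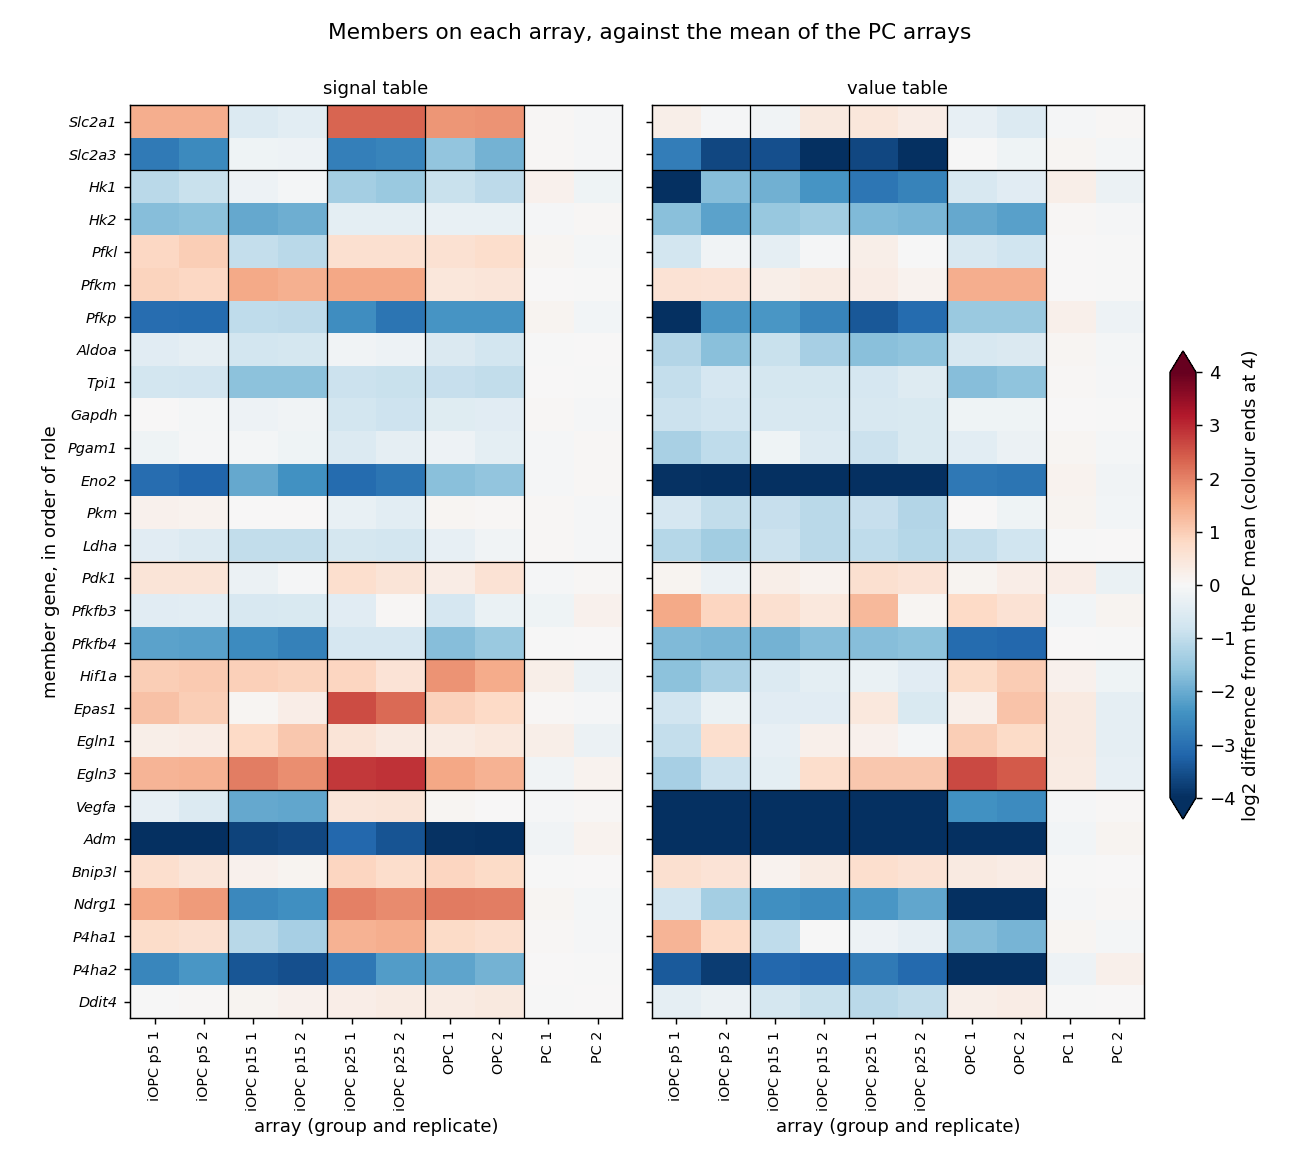
Level of each of the 28 members on each of the 10 arrays as log2 difference from the PC mean, in the signal table and in the value table, with members in rows by role. PC arrays are close to 0 by construction, and the passage 15 arrays of the signal table and the OPC arrays of the value table share a pattern.

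Single groups were set against the same 2 PC arrays, so their counts are not independent. At passage 5, 10 members were called higher (35.7% of all genes) and 12 lower (30.7%) by signal, and 4 higher (30.2%) and 18 lower (24.1%) by value. At passage 15 there were 4 higher (40.3%) and 15 lower (33.7%) by signal, and 0 higher (29%) and 16 lower (24.5%) by value. At passage 25 the signal counts were 13 higher (36.8%) and 13 lower (35.7%), and the value counts 2 higher (29.1%) and 17 lower (24.3%). For OPC they were 12 higher (35%) and 14 lower (32.8%) by signal, and 3 higher (30.6%) and 13 lower (25.8%) by value. The 3 passages together gave 12 higher (42.2%) and 15 lower (34.1%) by signal, and 2 higher (33%) and 18 lower (26.8%) by value. Lower calls outnumbered higher ones in every group by value, while by signal the 2 directions were equal at passage 25. Under median scaling of the signals the median change of all genes at passage 25 was -0.20, beside 0.01 under quantile normalization, and the split there became 10 higher and 14 lower. The higher calls by value were few and moved when 1 array was left out: at passage 5 they numbered 1 without either PC array and 2 without passage 5 replicate 1, and over the 3 passages 0 without PC replicate 1 and 1 without PC replicate 2 or either OPC array. At passage 25 they numbered 1 without PC replicate 2, either OPC array or passage 25 replicate 1.

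Between iOPC and OPC the tables disagreed on more members than they shared. By signal, 5 members were higher in iOPC (31.1% of all genes) and 13 lower (25.7%), and by value 7 were higher (28.4%) and 13 lower (26.9%). The 5 became 2 without OPC replicate 2 and 3 under median scaling. Called in opposite directions were 10 of 28 members, against 26% of all genes, while 4 were lower in both, against 4.35%, and 0 higher in both, against 5.33%. The 4 were Eno2, Hif1a, Vegfa and Ddit4. Eno2 changed by -1.16 (SE 0.099, adjusted p = 5.16e-06) in the signal table and -2.04 (SE 0.186, adjusted p = 5.5e-05) in the value table, with no overlap of arrays in either. Hif1a, also without overlap, changed by -0.76 (SE 0.132, adjusted p = 0.000757) and, in the value table, -1.66 (SE 0.161, adjusted p = 7.52e-05). The widest disagreement was that of Ndrg1, at -1.71 (SE 0.0789, adjusted p = 5.74e-08) in the signal table and 2.23 (SE 0.176, adjusted p = 2.39e-05) in the value table. Pfkm was higher in iOPC in the signal table, 0.82 (SE 0.0619, adjusted p = 2.07e-06), and lower in the value table, -1.11 (SE 0.108, adjusted p = 7.76e-05). P4ha2 was lower in iOPC in the signal table, -0.83 (SE 0.145, adjusted p = 0.000791), and higher in the value table, 1.42 (SE 0.204, adjusted p = 0.000706).

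Over passages, 1 member, Egln3, was higher at passage 25 than at passage 5 in both tables (1.1% of all genes), and 3 were opposite (3.26%). Without either passage 25 array no member was called higher by value, so the shared call of Egln3 was lost. Egln3 had log2 signals of 8.75 and 8.79 at passage 25, against 7.25 and 7.31 at passage 5. By value, it had 6.20 and 6.22 at passage 25, against 3.80 and 4.25 at passage 5. The 2 passages did not overlap in either table, with a change of 1.49 (SE 0.111, adjusted p = 1.59e-06) in the signal table and 2.18 (SE 0.367, adjusted p = 0.014) in the value table. By signal, 13 members were higher at passage 25 (26.4% of all genes) and 5 lower (29.4%), a split that became 10 and 7 under median scaling. The median change of all genes was -0.19 under median scaling and -0.02 under quantile normalization. The largest rises were those of Egln3, Pfkfb4 (1.48 (SE 0.0981, adjusted p = 6.75e-07)) and Epas1 (1.37 (SE 0.126, adjusted p = 7.78e-06)), followed by Hk2 (1.29 (SE 0.0761, adjusted p = 2.95e-07)). By value, 2 were higher (3.35%) and 4 lower (5.55%). Of those, Hif1a was higher (1.10 (SE 0.197, adjusted p = 0.0177)), and Ndrg1 (-1.14 (SE 0.216, adjusted p = 0.0214)), P4ha1 (-1.33 (SE 0.333, adjusted p = 0.0498)), Ddit4 (-0.73 (SE 0.14, adjusted p = 0.0229)) and Eno2 (-0.93 (SE 0.228, adjusted p = 0.0459)) were lower. Ndrg1, P4ha1 and Ddit4 were higher at passage 25 in the signal table, the 3 opposite calls. Leaving out arrays moved the value-table count of 6 over a range of 0 to 9, with 0 without passage 25 replicate 2, 1 without passage 25 replicate 1, and 3 without either PC or either OPC array. The 5 lower calls by signal became 2 without passage 5 replicate 2 and 3 without passage 25 replicate 1.

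Other genes of the same pathways, in the comparison of the 4 other groups with PC, were called in both directions. Over all genes, 41.8% were called higher and 34.3% lower by signal, and 33.8% and 27% by value. Of 11 tested genes of glycolysis and glycogen outside the 38, 6 were higher and 4 lower by signal, and 3 and 3 by value. Aldoc, the brain aldolase and an astrocyte gene, was higher by 7.18 log2 units in the signal table and 7.12 in the value table, detected on all 10 arrays. Pygl, which breaks down glycogen, changed by -1.10 in the signal table and -1.67 in the value table. Pdk4, a kinase that inhibits pyruvate dehydrogenase, was detected on none of the 8 arrays outside PC. It passed the filter only through the 2 PC arrays, so its detection there was a condition of testing.

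Of 26 other hypoxia genes, 12 were higher and 11 lower by signal (41.8% and 34.3% of all genes), and 7 and 12 by value (33.8% and 27%). The medians were -0.05 and -0.13, beside 0.08 and 0.11 over all genes. Lox, which cross-links collagen, changed by -7.18 in the signal table and -10.05 in the value table. It was detected on 1 of the 8 arrays outside PC, so it passed the filter only through PC. Angptl4, a secreted lipase inhibitor, changed by -4.78 in the signal table and -7.65 in the value table, and Flt1, a VEGF receptor, by -4.12 and -7.83. Plod1, a collagen lysyl hydroxylase, was higher by 1.71 in the signal table and 1.80 in the value table. The same shares of all genes stand beside the lists that follow. Of 4 pentose phosphate genes, 2 were higher and 2 lower by signal, and 3 and 0 by value, with Taldo1, transaldolase, higher in both (0.75 and 0.98). Of 19 genes of pyruvate entry and the tricarboxylic acid cycle, 3 were higher and 7 lower by signal, and 4 and 5 by value. Of 3 tested genes of gluconeogenesis, 2 were higher in the signal table and 1 in the value table, the shared one being Fbp1, fructose bisphosphatase, detected on all 8 arrays outside PC and on neither PC array.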

How the data were processed

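Total RNA was made into biotin-labelled cRNA and hybridised to Illumina arrays, per the labels' protocols, and BeadStudio 3.2, RMA and lumi are named with no role, per the submitters' processing notes. The labels also mention a kit with a second amplification for transplanted cells after sorting, with no word on its use for these arrays. The authors' deposited signal table holds an intensity per probe and array, non-normalized per the file headers, and beside it the deposited detection p-value of each probe. The authors' value table holds deposited log2 values that share their quantiles across arrays (median 3.29 in each), and how their background was treated is not given in the sources used here. Groups were taken from the sample titles.

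Signals were background-corrected with neqc (using negative controls that the detection p-values imply, with an offset of 16), then quantile-normalized and log2-transformed in limma 3.58.1 (R 4.3.3). Probes were kept if 2 or more arrays had a detection p-value below 0.01, and a gene was read from its brightest such probe, which left 9778 genes. The same probes were read from the value table. Each table was fitted with lmFit and eBayes, with 1 mean per group and 5 residual degrees of freedom, two-sided, and adjusted by Benjamini-Hochberg. A gene not above background on any array of a group has an at-least fold from the signals, in which the mean of the brighter group is set against, for each dim array, the higher of the lowest detected level and the gene's own. Where only some arrays detected a gene, and in the value table, which has no detection calls, the fitted change is given. The number of arrays limits the precision. The scripts were tested on simulated data.

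All 38 listed members could be named. Values per array were given for members called in both tables, or in opposite directions, in the comparison of the 4 other groups with PC. Some were also given for P4ha1, Slc2a1, Hif1a and Egln3, which were called there in the signal table alone. Of each other list, up to 4 genes with the largest change in the signal table could be named. Members, lists and tests were chosen with earlier results of these data known. Alternatives covered the background correction, scaling, filter, probe rule, variance trend, replicate block and leaving out arrays or groups. Leaving out both passage 5 arrays was added after seeing the data. Gene symbols came from the platform annotation and promoter windows from RefSeq (GRCm38.p6). Plots used matplotlib 3.10.9 (Python 3.11.15).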

Additional observations from a re-analysis of the deposited data

Results flagged for a closer look

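In 18 pairs of groups a member was called in opposite directions against PC, with the difference between the 2 groups itself called by limma (adjusted over all genes). The groups share the PC arrays, and the headings are those of each table. The share of all genes with such pairs is not given here, so the counts in either table do not set these members apart from other genes. Of the 14 pairs in the signal table, 13 held passage 15. Ndrg1 at passage 15 differed by -4.58 log2 units from OPC (adjusted p = 4.86e-11) and by -4.48 from passage 25, and passage 5 differed from passage 15 by 4.14. For Slc2a1 the passage 15 level differed by -2.81 from passage 25 (adjusted p = 2.12e-10) and by -2.26 from OPC, and passage 5 differed from passage 15 by 1.94. For P4ha1 the differences were -2.65 (adjusted p = 1.76e-09), -1.94 and 1.91 in the same order. For Pfkl they were -1.65, -1.67 and 1.92 (adjusted p = 1.53e-08 for the last), from its brightest probe alone. Its second probe, not above background at passage 15, did not show gaps of this size. That probe had log2 signals of 5.08 and 4.66 at passage 5, 4.75 and 4.76 at passage 15, 5.02 and 4.95 at passage 25, and 4.94 and 5.29 in OPC. Vegfa at passage 15 differed by -2.57 from passage 25 (adjusted p = 1.45e-09), and passage 5 differed from passage 25 by -0.93.

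By value, 4 pairs were found, each with passage 5. Egln3 at passage 5 differed by -3.64 from OPC (adjusted p = 0.000122) and by -2.18 from passage 25 (adjusted p = 0.0140), with -1.10 at passage 5, 1.08 at passage 25 and 2.54 in OPC against PC. Hif1a at passage 5 differed by -2.36 from OPC (adjusted p = 4.15e-05), and P4ha1 by 2.87 (adjusted p = 0.000264).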

How the results depend on the processing

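Depth was not counted on these arrays, so signal over background set the limit: Adm, Pfkfb3, Eno2, Pfkp, Epas1, Ndrg1 and P4ha2 were below background on some arrays. Replicate numbers did not pair the samples (correlations of same-numbered deviations -0.05 to 0.13 in the signal table and -0.08 to 0.10 in the value table). With the number as a block, 27 members were called against PC in the signal table and 20 in the value table, where the added call was Pfkfb3 (0.78, adjusted p = 0.0385). The count at passage 25 against passage 5 in the value table, 6 as reported, was 2 without a filter on dim probes, 3 without both OPC arrays and 0 to 9 when 1 array was left out. Of the totals of called members, this was the only one to move by over 1.5 times under the alternatives run. Signs turned, with the cause not tested, for Vegfa in the signal table without both passage 15 arrays (0.0395), and in the value table for Epas1 (0.25) and Pfkl (0.18) with the mean of all passing probes, Epas1 without both passage 15 arrays (0.0225), Egln1 (-0.0547) and P4ha1 (0.10) without both OPC arrays, and Epas1 (0.0384) and Hif1a (0.0175) without both passage 5 arrays. None of these values, with the sign turned, was called. Leaving out single arrays gave -0.0921 to 0.0248 for Pkm in the signal table. In the value table it gave -0.44 to 0.25 for Epas1, -0.19 to 0.55 for Egln1, -0.0563 to 0.50 for Pdk1 and -0.0214 to 0.10 for Slc2a1. Median scaling of the signals ended the calls of Ddit4 and Pfkl and made one for Pkm (-0.37, adjusted p = 0.00167), and turned the sign of Ddit4 in the 3 passages together and in passage 25 against PC.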
